A study of Mus musculus with 16 samples.

Results

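Transcripts of 9 genes that mark homeostatic microglia were followed in CD11b+ cells of the mouse brain: Tmem119, Cx3cr1, Sall1, Siglech, Fcrls, Gpr34, Olfml3, Selplg, and Csf1r. They were picked by name, as 9 of the 24421 rows of the count table, and all 9 passed the filter on low counts that left 14565 genes to test. The 3 groups were female C57BL/6J mice, newly weaned and then kept on 1 of the study's diets for a month. CON mice (n = 4 libraries) ate standard chow and MAL mice (n = 5) an isocaloric chow low in protein and fat. MAL-BG mice (n = 7) ate the MAL chow and were also gavaged with a mix of E. coli and Bacteroidales commensals, whereas the other groups were gavaged with buffer. No transgene or deletion is named for these mice. Cells were pulled from dissociated tissue with magnetic beads against CD11b, a surface integrin of microglia and other myeloid cells, so neutrophils, monocytes, and border macrophages can come along. The labels name cortical tissue as the source and the study's methods name whole cerebra.

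Microglia are the resident macrophages of the brain parenchyma. In the healthy brain they carry transcripts that separate them from other macrophages, among them surface receptors that sense neurons and growth factors, lectins, and a few secreted proteins. The transcription factor Sall1 helps to hold this state, and survival depends on the tyrosine kinase receptor Csf1r and its ligands Csf1 and Il34. Several of the transcripts are known to fall when microglia are activated, so they are often read as a measure of the homeostatic state.

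By function, Csf1r is the receptor for Csf1 and Il34, Cx3cr1 is the receptor for the neuronal chemokine Cx3cl1, and Gpr34 is a G protein-coupled receptor for lysophosphatidylserine. Siglech is a sialic acid-binding lectin that signals through the adaptor Tyrobp, Fcrls is an Fc receptor-like protein, and Selplg encodes PSGL-1, a ligand of the selectins. Tmem119 is a membrane protein used to tell microglia from infiltrating macrophages, Olfml3 is a secreted olfactomedin-like protein, and Sall1 is a zinc finger protein.

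On GRCm38.p6, RefSeq places Tmem119 at chr5:113793729-113800396 and Selplg near it at chr5:113817798-113832528. Fcrls lies at chr3:87250736-87263765 and Olfml3 at chr3:103735394-103738001. Siglech is at chr7:55768154-55779448, Sall1 at chr8:89027242-89044162, Cx3cr1 at chr9:120048683-120068296, and Gpr34 at chrX:13622650-13640859.

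The table of RefSeq promoter windows used here holds 5 of the 9 members, namely Fcrls, Olfml3, Siglech, Sall1, and Cx3cr1. The 250 bases before the start are shown for Fcrls, Olfml3, and Cx3cr1, because these 3 rose in MAL-BG and because Cx3cr1 varied differently from the other 2 among its libraries. Capitals mark the exact string AGGAAG or the same letters on the other strand (CTTCCT). It is a form of the letters read by ETS factors such as PU.1, the myeloid lineage factor encoded by Spi1. Shorter forms such as GGAA were not marked or counted. All 3 windows are on the minus strand and are written 5′ to 3′ toward the gene. The window of Fcrls is chr3:87263525-87263774, that of Olfml3 chr3:103738002-103738251, and that of Cx3cr1 chr9:120068297-120068546. The start used for Fcrls lies inside the gene's full RefSeq span, so 241 of the 250 bases shown are within that span, and the windows of Olfml3 and Cx3cr1 lie outside theirs.
Fcrls: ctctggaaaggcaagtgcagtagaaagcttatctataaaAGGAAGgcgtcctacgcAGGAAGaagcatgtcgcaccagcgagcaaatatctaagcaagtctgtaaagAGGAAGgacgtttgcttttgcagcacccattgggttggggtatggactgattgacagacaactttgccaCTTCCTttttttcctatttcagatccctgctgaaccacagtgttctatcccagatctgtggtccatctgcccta
Olfml3: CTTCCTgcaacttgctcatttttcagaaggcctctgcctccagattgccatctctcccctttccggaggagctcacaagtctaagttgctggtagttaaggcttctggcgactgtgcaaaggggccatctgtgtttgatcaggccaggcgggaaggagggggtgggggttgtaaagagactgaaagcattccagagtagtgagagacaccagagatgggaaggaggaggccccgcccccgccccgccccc
Cx3cr1: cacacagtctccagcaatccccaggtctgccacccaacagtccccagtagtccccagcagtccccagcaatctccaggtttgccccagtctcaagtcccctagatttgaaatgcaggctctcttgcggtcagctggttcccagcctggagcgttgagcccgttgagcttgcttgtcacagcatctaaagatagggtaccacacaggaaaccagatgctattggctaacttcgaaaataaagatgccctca
AGGAAG stood 4 times before Fcrls, at 211, 194, 143, and 74 bases from this inner start, and 1 time before Olfml3, at 250 bases. This exact string was not found before Cx3cr1 or Siglech, and of the 3 annotated starts of Sall1 it stood before 1. The shorter GGAA does stand in the Cx3cr1 window shown. Over all 32851 promoter windows of the same length, 29.5% held AGGAAG on either strand and 0.268% held it 4 times or more. The longer form GAGGAAGT, which contains AGGAAG, was in 2.44% of windows and in 0 of these members. These matches describe letters in short windows, and no binding was measured.

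Library totals ran from 10312703 to 13461574 counts in CON, from 10864121 to 12819982 in MAL, and from 14191791 to 18705202 in MAL-BG, so every MAL-BG library was deeper than every other library. Levels are given as CPM, counts per library total scaled by the TMM method. The members are abundant transcripts: by mean CPM among 14565 genes, Csf1r ranked 7, Cx3cr1 ranked 8, and Sall1, the lowest of the 9, ranked 144. Together they took 1.20% to 2.01% of scaled counts in CON, 1.26% to 2.12% in MAL, and 2.08% to 3.27% in MAL-BG. All 9 transcripts were present in every library, and the lowest MAL-BG share lay below the highest MAL share.

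Levels were compared between genes as CPM per kilobase of the longest well-supported GENCODE coding transcript. In CON, Csf1r was highest at 1089.9 ± 234 CPM per kilobase (SD, n = 4), followed by Cx3cr1 at 819 ± 242, Selplg at 747 ± 182, Fcrls at 682 ± 176, and Tmem119 at 559.7 ± 142. Neighbours in this upper part of the order overlapped between libraries. Gpr34 (329 ± 64.5) lay below every Tmem119 value and overlapped Siglech (268 ± 37.1), and Olfml3 (179 ± 36.7) lay below Siglech and overlapped Sall1 (109.7 ± 39). The order of the means was the same in MAL. In MAL-BG, Cx3cr1 came first at 2057 ± 625 CPM per kilobase (SD, n = 7), ahead of Selplg at 1632 ± 299 and Csf1r at 1406 ± 512, and these 3 overlapped. The value of Olfml3 rests on a GENCODE transcript of 5465 bases, longer than the whole RefSeq gene, so its place in the order depends on the gene model.

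**Figure D1:**
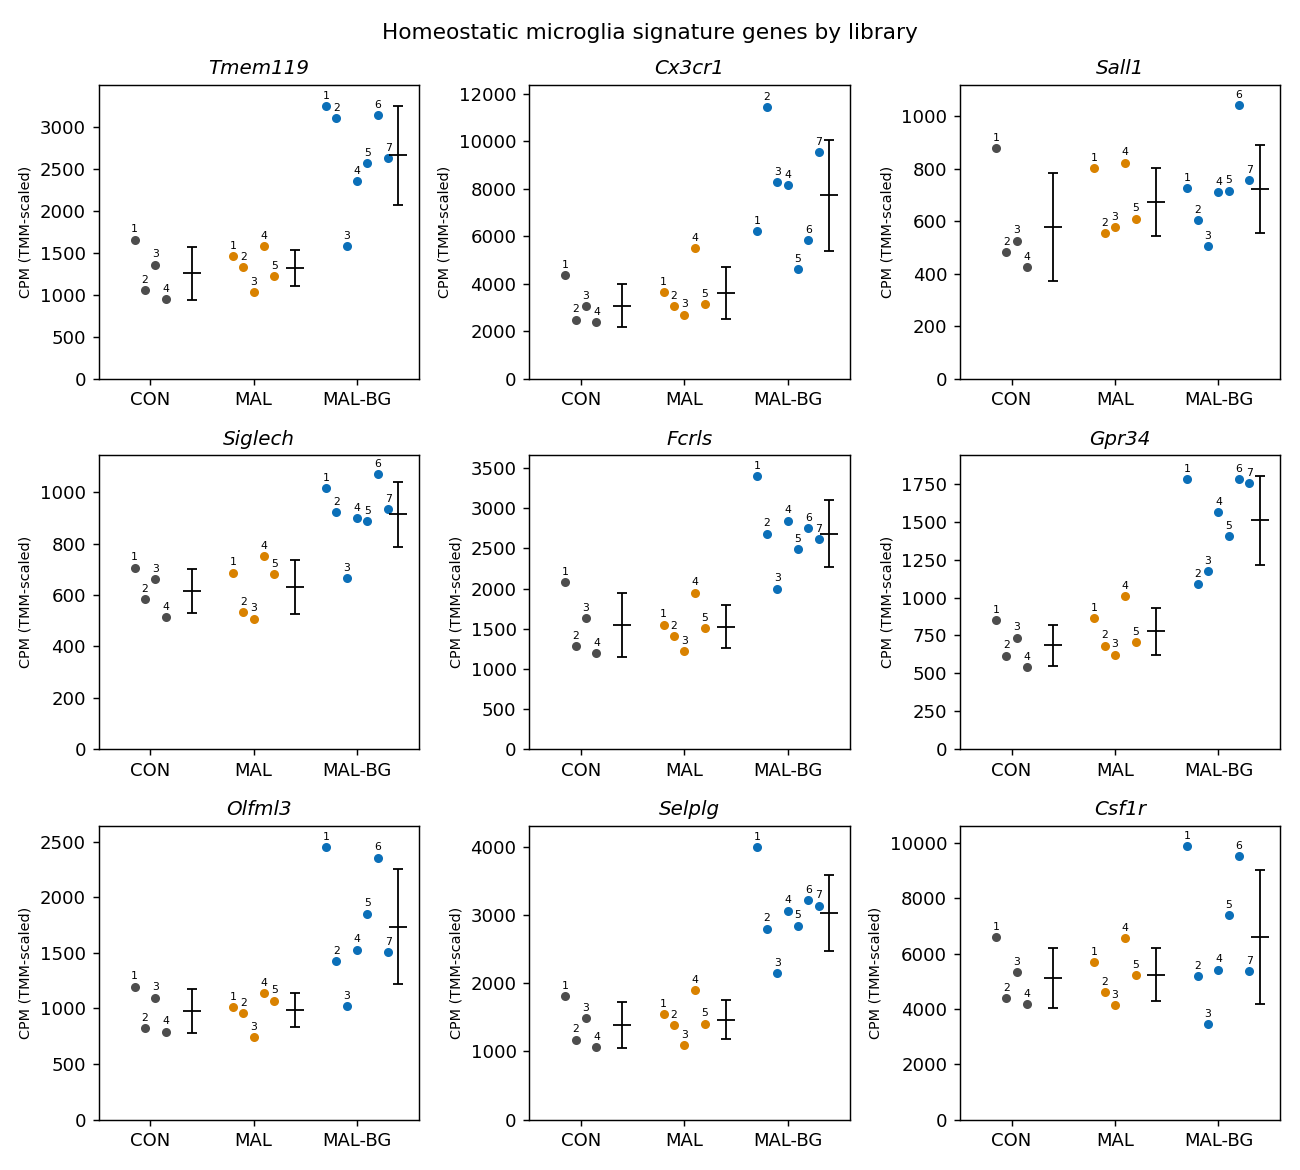
Levels of the 9 genes in each library (vertical axis, TMM-scaled CPM from 0), 1 panel a gene, with the library number beside each point and the mean and SD of each group as a bar. Cx3cr1, Gpr34, and Selplg in MAL-BG lay above every CON library, while Sall1 and Csf1r overlapped.

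The comparison of MAL-BG with CON asks how the diet and the bacterial gavage together changed these transcripts. All 9 members had a higher mean in MAL-BG, and 6 rose past the threshold for differentially expressed genes (DEGs, adjusted p under 0.05 and log2 fold change beyond 0.58 by the quasi-likelihood test of edgeR). Across all 14565 genes, 11.4% were called higher and 21.7% lower, with a median log2 fold change of -0.04, against a median of 0.83 for the members. In 3 members every MAL-BG library exceeded every CON library, which held for 9.83% of all genes. More microglia in the fraction and more of a transcript per cell cannot be told apart in such bulk libraries.

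The comparison of MAL-BG with MAL, groups that shared the diet, gave 6 calls as well, again with 9 of 9 means higher. It uses the same 7 MAL-BG libraries, so the comparisons are not independent. Here 10.2% of all genes were called higher and 20.2% lower, the median log2 fold change was -0.03 for all genes and 0.82 for the members, and 4 members lay above every MAL library (7.86% of all genes). The balance of calls across all genes depends on scaling: 34.4% of DEGs against CON were higher with TMM, 22.4% with total counts alone, and 57.8% when the mean log2 CPM of all genes was equalised. Tmem119, Cx3cr1, Fcrls, Gpr34, Olfml3, and Selplg were DEGs in both comparisons under each of these scalings.

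Markers of other cells moved with the groups. The 15 choroid plexus genes, led by Ttr, were lower in MAL-BG, 15 as DEGs against CON and 14 against MAL, and their summed level was 14529 to 55902 CPM in CON, 6804 to 43888 in MAL, and 1886 to 17079.7 in MAL-BG. CON library 1 and MAL library 4 had the lowest choroid plexus sum and the highest level of all 9 members in their group, and MAL-BG library 3, lowest in 7 of 9 members, had the highest choroid plexus sum of its group. Some other libraries followed this order. MAL libraries 1 and 5 had the next lowest choroid plexus sums of MAL (13000 and 31834 CPM) and the next highest member sums (17275 and 15565.5 CPM). MAL libraries 2 and 3, with choroid plexus sums of 43888 and 41991 CPM, had the lowest member sums (14514 and 12618 CPM). Others departed from it. CON library 4, lowest in all 9 members, had a choroid plexus sum of 29251 CPM, below CON libraries 2 and 3 (55902 and 34158). MAL-BG library 1 had the highest member sum (32720 CPM) with the second-highest choroid plexus sum of its group (7393), and library 2 had the lowest choroid plexus sum (1886) with a member sum of 29246.

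**Figure D2:**
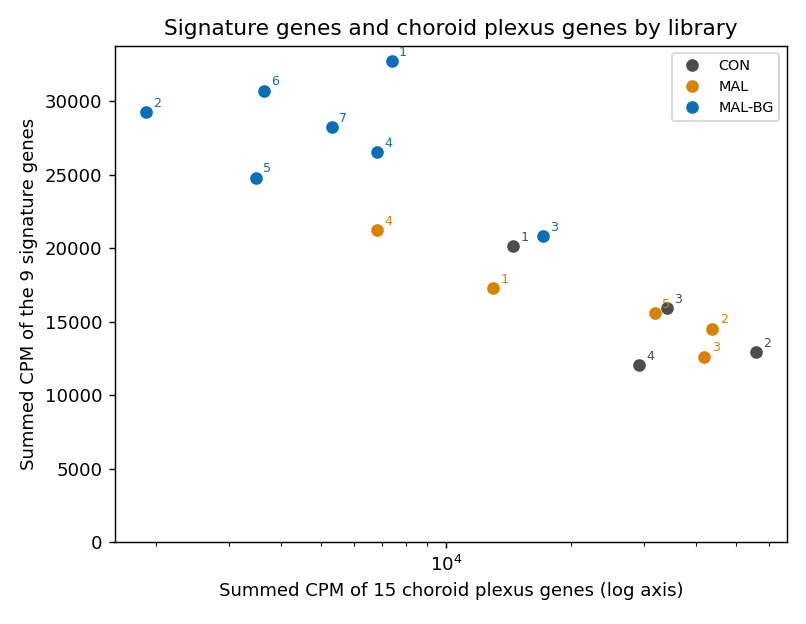
Summed CPM of the 9 signature genes (vertical axis, from 0) against summed CPM of 15 choroid plexus genes (horizontal log axis), 1 point a library with its number. CON library 1 and MAL-BG library 3 lie near each other at 20128 and 20824 CPM of signature genes, and the other MAL-BG libraries lie at 24786 or above.

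With the log2 choroid plexus sum as a covariate, an alternative chosen after seeing the data, 2 of 9 members stayed DEGs in each comparison, Gpr34 and Selplg. On the log2 scale, Gpr34 was then 0.82 (adjusted p = 0.0233) against CON and 0.71 (adjusted p = 0.0166) against MAL. Selplg was 0.73 (adjusted p = 0.0342) and 0.72 (adjusted p = 0.0136). Cx3cr1 was 0.83 (adjusted p = 0.0582) against CON and 0.71 (adjusted p = 0.0514) against MAL, which did not pass, and neither did Tmem119 at 0.51 (adjusted p = 0.107) and 0.53 (adjusted p = 0.0522). Fcrls (0.41 (adjusted p = 0.175) against CON and 0.50 (adjusted p = 0.0525) against MAL) and Olfml3 (0.44 (adjusted p = 0.299) and 0.49 (adjusted p = 0.157)) also lost their calls. Sall1 and Csf1r turned below 0, at -0.23 and -0.17 against CON and -0.36 and -0.11 against MAL. Over all genes this fit called 6.5% higher against CON and 9.25% against MAL. The covariate and the groups overlap, since 6 of 7 MAL-BG libraries had a lower sum than every CON library, and how much of the rise goes with either cannot be told apart.

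Libraries of different groups with close choroid plexus sums, picked after their values were seen, can be set side by side without a test. MAL library 4 and MAL-BG library 4 had sums of 6804 and 6828 CPM, and Gpr34 was at 1009 and 1565 CPM, Selplg at 1894 and 3064, Cx3cr1 at 5489.8 and 8139, Fcrls at 1951 and 2846, Tmem119 at 1577 and 2351, and Csf1r at 6575 and 5422. CON library 1 and MAL-BG library 3 had sums of 14529 and 17080 CPM, and Gpr34 was at 849 and 1176 CPM, Selplg at 1814 and 2143, Cx3cr1 at 4359 and 8287, Fcrls at 2081 and 1999, Tmem119 at 1656 and 1578, and Csf1r at 6587 and 3445. In the first pair Olfml3 was at 1136 and 1529 CPM, Siglech at 750 and 899, and Sall1 at 823 and 709. In the second they were at 1196 and 1024, 706 and 667, and 879 and 505. Gpr34, Selplg, and Cx3cr1 were higher in the MAL-BG library of each pair, and Csf1r and Sall1 were lower. Fcrls, Tmem119, Olfml3, and Siglech were higher in that of the first pair and lower in that of the second. MAL-BG library 1 (sum of 7393 CPM) is also near MAL library 4. Its Csf1r was higher, at 9889 CPM, so the lower Csf1r depends on the pair picked.

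Genes of other cell types were counted as well. Over all genes, 11.4% were called higher and 21.7% lower against CON, and 10.2% and 20.2% against MAL. Whether any of these lists differs from all genes was not tested. Of 17 neutrophil genes, 13 were called higher in each MAL-BG comparison, with Csf3r the most abundant, and the sum was 538 to 1255 CPM in CON, 570.2 to 1139 in MAL, and 639.5 to 15368 in MAL-BG. Library 5 held the highest value, and the other 6 MAL-BG libraries lay between 640 and 3589 CPM. Csf3r itself had a lower mean in MAL-BG (458 CPM) than in CON (604) and MAL (589). It held 1118 of the 1255 CPM in CON library 1, so the sums hide how the other genes moved. The median log2 fold change of the 17 genes was 4.21 against CON and 3.95 against MAL. In 8 of them every MAL-BG library exceeded every CON library, and in 2 every MAL library. Of 10 tested lymphocyte genes, led by Gzma, 7 were higher in each comparison and 1 was lower against MAL (sums of 48.9 to 80.3, 56 to 74.6, and 115 to 241 CPM in CON, MAL, and MAL-BG). Of 14 monocyte genes, led by Nr4a1, 4 were lower against CON and 6 against MAL (sums of 1413 to 2462, 1644 to 2156, and 613 to 2014 CPM). Nr4a1 also belongs to the early response list below, and it weighs heavily in this sum. Its mean was 392 CPM for MAL-BG, against 993 for CON and 775 for MAL, and that of Ace was 81 against 349 and 375. Ccr2 was at 54 against 60 and 110, and Ly6c2 was higher, at 38 against 21 and 27. Without regard to calls, 5 of the 14 had a log2 fold change above 0 against CON and 3 against MAL. Neuronal genes, led by Snap25, were lower in 11 and 10 of 12 cases (sums of 45.8 to 247, 72.8 to 194, and 15.9 to 63.9 CPM), and astrocyte genes, led by Slc1a3, in 6 and 7 of 10 (sums of 318 to 705, 373 to 653, and 172 to 359 CPM). Ependymal genes, led by Foxj1, were lower in 7 of 9 cases against CON and, against MAL, lower in 5 and higher in 1 (sums of 157 to 275, 79.5 to 246, and 42.1 to 133 CPM). Of 13 endothelial and mural genes, led by Cldn5, 2 were higher and 1 lower against CON and 5 and 2 against MAL (sums of 859 to 3089, 861 to 2227, and 1672 to 4796 CPM). Of 16 early response genes, led by Jun and known to be induced by handling of tissue, 1 was higher and 6 lower against CON and 3 and 9 against MAL (sums of 23998 to 48494, 25641 to 53990.5, and 13906 to 38613 CPM). Border macrophage genes, led by Stab1, were lower in 1 and 2 of 12 cases, under the share of all genes called lower. Of 12 oligodendrocyte genes, led by Mbp, 3 were higher and 2 lower in each comparison. The hemoglobin genes Hba-a1, Hba-a2, Hbb-bs, and Hbb-bt were at 0 in every library. The mode of counting is not given, so these values do not show whether red cells were absent. Without MAL-BG library 5, 6 members were still called in each comparison. The part of these other lists in the results was not tested.

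Among the receptors, Cx3cr1 moved most. Its CPM was 4359, 2489, 3071, and 2383 in CON libraries 1 to 4 and 3657, 3054, 2695, 5489.8, and 3148 in MAL libraries 1 to 5. In MAL-BG it was lowest at 4613, with a median of 8139 and a highest value of 11430. Every MAL-BG library thus lay above CON, and 6 of 7 lay above MAL, whose library 4 overlapped. The log2 fold change was 1.33 (SE 0.27, adjusted p = 0.00105) against CON and 1.10 (SE 0.25, adjusted p = 0.0022) against MAL.

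Gpr34, the lysophosphatidylserine receptor, had no overlap. CPM was 849, 617, 736, and 542 in CON and 864, 683, 624, 1009, and 704 in MAL. MAL-BG libraries ran from 1089 through a median of 1565 to 1782 CPM, above all 9 other libraries. Relative to CON the log2 difference was 1.14 (SE 0.19, adjusted p = 0.000218), and relative to MAL it was 0.96 (SE 0.17, adjusted p = 0.000412).

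Csf1r, the growth factor receptor, lies at chr18:61105572-61131139 on the same build and did not pass the test. CPM was 6587, 4403, 5340.4, and 4164 in CON and 5697, 4618, 4128, 6575, and 5220.0 in MAL. MAL-BG libraries lay on both sides of these values, with a lowest of 3445, a median of 5422, and a highest of 9889. The log2 fold change was 0.37 (SE 0.26, adjusted p = 0.255) against CON and 0.33 (SE 0.24, adjusted p = 0.266) against MAL. In GENCODE, its exons share up to 873 bases with Hmgxb3 on the opposite strand, and whether counting used the strand is not given in the sources used here. Hmgxb3 itself lay between 18.2 and 37.9 CPM in the 16 libraries, far below Csf1r.

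Of the lectins and adhesion molecules, Selplg rose with no overlap. CPM was 1814, 1174, 1489.7, and 1066 in CON, 1548, 1383, 1096, 1894, and 1408 in MAL, and from 2143 through 3064 (median) to 3993 in MAL-BG. Its log2 fold changes were 1.13 (SE 0.19, adjusted p = 0.000303) against CON and 1.05 (SE 0.18, adjusted p = 0.000294) against MAL.

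Siglech lay at the edge of the fold threshold. CPM was 706, 584, 661, and 512 in CON, 687, 533, 508, 750.2, and 679.6 in MAL, and from 667 through 922 to 1071 in MAL-BG, where library 3 alone overlapped. The log2 fold changes, 0.57 (SE 0.15, adjusted p = 0.00533) against CON and 0.53 (SE 0.14, adjusted p = 0.00515) against MAL, passed the test of edgeR and fell short of 0.58, so Siglech is not among the 6 DEGs. With no fold threshold the count of members is 7 in each comparison.

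Fcrls lay at 2081, 1287, 1629.6, and 1201 CPM in CON, at 1551, 1410.3, 1221, 1951, and 1505 in MAL, and from 1999 through 2684 to 3406 in MAL-BG. MAL-BG library 3 fell below CON library 1, and all 7 were above MAL. This Fc receptor-like gene rose by 0.79 (SE 0.18, adjusted p = 0.0022) on the log2 scale against CON and 0.81 (SE 0.17, adjusted p = 0.00112) against MAL.

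For Tmem119, the membrane marker, CPM was 1656, 1054, 1358, and 951 in CON and 1456, 1324, 1028, 1577, and 1221 in MAL. MAL-BG libraries ran from 1578 through 2625 to 3249. Library 3 was again the lowest and the sole overlap with CON, and it exceeded MAL library 4 by little. The log2 fold change was 1.08 (SE 0.21, adjusted p = 0.000637) against CON and 1.01 (SE 0.19, adjusted p = 0.000613) against MAL.

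Olfml3, the secreted protein, rose by 0.83 (SE 0.22, adjusted p = 0.00589) on the log2 scale against CON and 0.82 (SE 0.20, adjusted p = 0.00398) against MAL. CPM was 1196, 822, 1098, and 792 in CON, 1014, 955, 741, 1136, and 1071 in MAL, and from 1024 through 1529 to 2454 in MAL-BG. MAL-BG library 3 alone overlapped the other groups.

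Sall1, the transcription factor of the set, did not pass the test. CPM was 879, 481, 525, and 425 in CON, 801, 553, 577, 823, and 609 in MAL, and from 505 through 716 to 1042 in MAL-BG. All 3 groups overlapped, and 1 of 7 MAL-BG libraries exceeded the highest CON library. The log2 fold change was 0.32 (SE 0.21, adjusted p = 0.224) against CON and 0.10 (SE 0.19, adjusted p = 0.689) against MAL, the latter turning to -0.03 with total counts alone. Without CON library 1, the highest of CON, the value against CON was 0.58 (adjusted p = 0.0242) and passed the threshold.

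**Figure D3:**
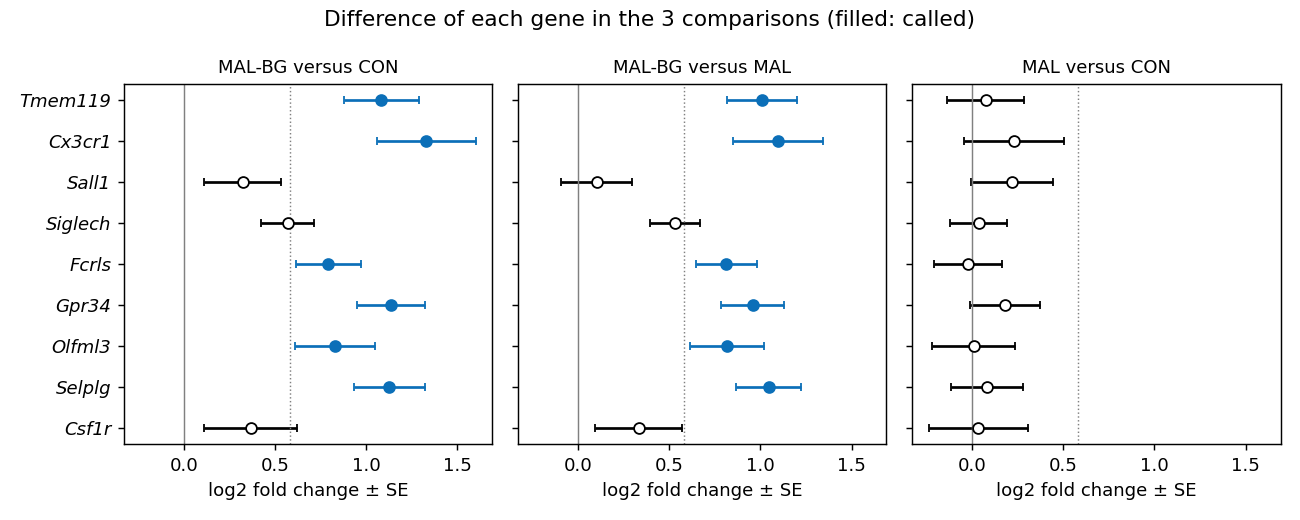
Log2 fold change with SE (horizontal axis) of each gene in the 3 comparisons, with filled points for DEGs and a dotted line at 0.58. Tmem119, Cx3cr1, Fcrls, Gpr34, Olfml3, and Selplg are filled in both MAL-BG panels, and all 9 points of MAL versus CON lie between -0.02 and 0.23.

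The comparison of MAL with CON asks what the diet alone did, and it gave no call for any member. Of the 9 log2 fold changes, 8 were above 0 and 1 below, from -0.02 for Fcrls to 0.23 for Cx3cr1, with a median of 0.07. Adjusted p was 0.999 for each with edgeR, and 0 of 9 had an unadjusted p under 0.05. The share of all genes called was 0%, with 212 of 14565 at an unadjusted p under 0.05. DESeq2 also called 0 genes, with 241 at an unadjusted p under 0.05 and 0 members among them. The SE of the members' differences ran from 0.16 for Siglech to 0.28 for Cx3cr1, so small changes were not detectable with 4 and 5 libraries.

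Members were also compared with Csf1r. The ratio of a member to Csf1r in the same library does not depend on library scaling, and its log2 value was compared with a two-sided exact permutation test, adjusted over 16 tests (8 genes, 2 comparisons), of which 9 passed 0.05. The smallest p it allows is 0.00303 against CON and 0.00126 against MAL. For Tmem119, Gpr34, Olfml3, and Selplg the ratio was higher in all 7 MAL-BG libraries than in every CON and MAL library. The share of all genes whose ratio to Csf1r separates or passes in this way was not computed, so these counts have no background beside them. Selplg stood at 0.256 to 0.279 of Csf1r in CON, 0.266 to 0.299 in MAL, and 0.338 to 0.622 in MAL-BG, a log2 difference of 0.83 from CON and 0.78 from MAL (exact permutation test, adjusted p = 0.0144 for each). Olfml3 stood at 0.182 to 0.206 in CON, 0.173 to 0.207 in MAL, and 0.248 to 0.297 in MAL-BG, a log2 difference of 0.49 and 0.51 (exact permutation test, adjusted p = 0.0144 for each).

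The ratio of Tmem119 differed by 0.78 and 0.72 (exact permutation test, adjusted p = 0.0144 for each) and that of Gpr34 by 0.83 and 0.69 (exact permutation test, adjusted p = 0.0242 and 0.0144). Fcrls passed against MAL with 0.55 and not against CON with 0.51 (exact permutation test, adjusted p = 0.0269 and 0.0582). Cx3cr1 had the largest mean difference, 1.01 and 0.82, but did not pass (exact permutation test, adjusted p = 0.0837 and 0.135), and its MAL-BG libraries spread over 0.613 to 2.41 times Csf1r. Siglech, at 0.26 and 0.27, did not pass (exact permutation test, adjusted p = 0.229 and 0.194). Sall1 was at 0.05 and -0.17 (exact permutation test, adjusted p = 0.818 and 0.368).

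These ratios are relative to Csf1r alone, and their size and calls depend on that choice. With P2ry12 as the denominator, 5 of 16 tests passed 0.05. A ratio to a gene that rose by more, such as Cx3cr1 with 1.33 on the log2 scale against CON, would be lower in MAL-BG for the other members, so the direction of these ratios holds for the named denominators only.

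How members varied among libraries of 1 group was described by the correlation of deviations from the group means over 16 libraries, which share their depth and cell composition, with no test. In 36 pairs the median Pearson r was 0.80. The closest pairs were Fcrls with Selplg (0.98) and Olfml3 with Csf1r (0.98), and the pairs without Cx3cr1 were all at 0.67 or above. Cx3cr1 was apart, from 0.47 with Fcrls down to -0.07 with Olfml3 and -0.09 with Csf1r. Within CON and within MAL, however, Cx3cr1 and Csf1r put the libraries in the same order, so their value of -0.09 arose in MAL-BG.

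**Figure D4:**
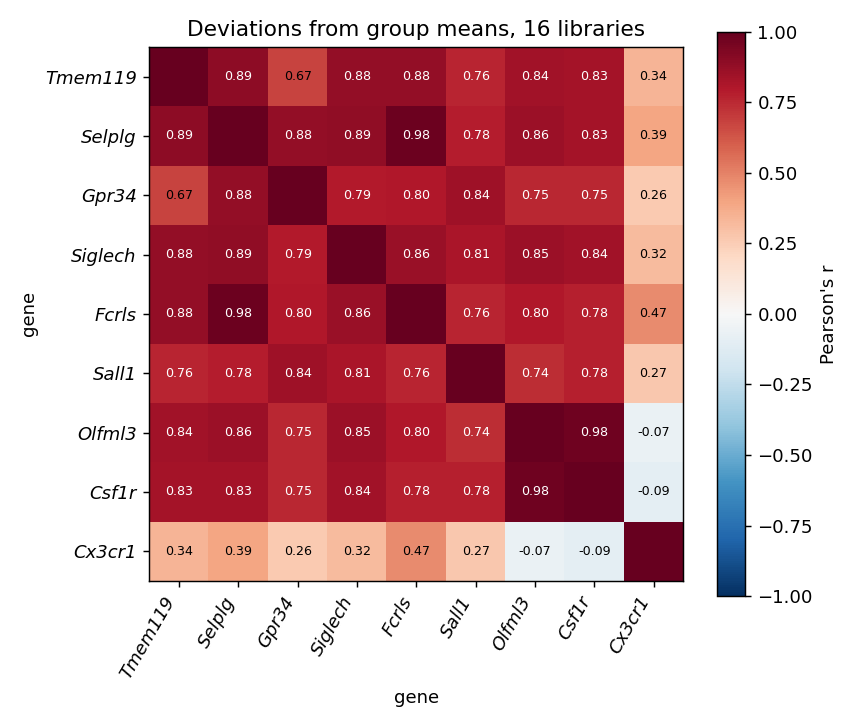
Pearson's r of deviations from group means on the log2 CPM scale over 16 libraries for each pair of the 9 genes, from -1 (blue) to 1 (red). The row of Cx3cr1 is pale, from -0.09 to 0.47, and all other pairs are at 0.67 or above.

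Cx3cr1 and Csf1r parted in the MAL-BG libraries. Cx3cr1 was at 6209, 4613, and 5830.3 CPM in MAL-BG libraries 1, 5, and 6 and at 11430, 8287, 8139, and 9529 in libraries 2, 3, 4, and 7. Csf1r ran the other way, at 9889, 7409, and 9517 CPM in libraries 1, 5, and 6 and at 5189, 3445, 5422, and 5381 in the other 4. The ratio of Cx3cr1 to Csf1r was 0.628, 0.623, and 0.613 in the first 3, within the span of CON (0.565 to 0.662) and MAL (0.603 to 0.835), and 2.20, 2.41, 1.5, and 1.77 in libraries 2, 3, 4, and 7, above both.

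Olfml3, whose promoter window is shown beside that of Cx3cr1, kept with Csf1r, at 2454, 1853, and 2356 CPM in libraries 1, 5, and 6 and 1424, 1024, 1529, and 1509 in the rest. P2ry12, a purinergic receptor for process motility and no member here, was likewise at 3141, 2585, and 3825 CPM in the first 3 and at 909.8, 1247, 1802, and 2078 in libraries 2, 3, 4, and 7. The neutrophil sum was highest in libraries 5, 7, and 2, which lie on both sides of this division. The libraries are divided here by their own Cx3cr1 values, so no test was made. The sample titles bear a letter A for 4 and B for 3 MAL-BG samples (1 and 3 in CON, 4 and 1 in MAL), whose meaning the labels do not give. No source ties a title to a numbered library, so whether the letters follow this division was not tested.

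**Figure D5:**
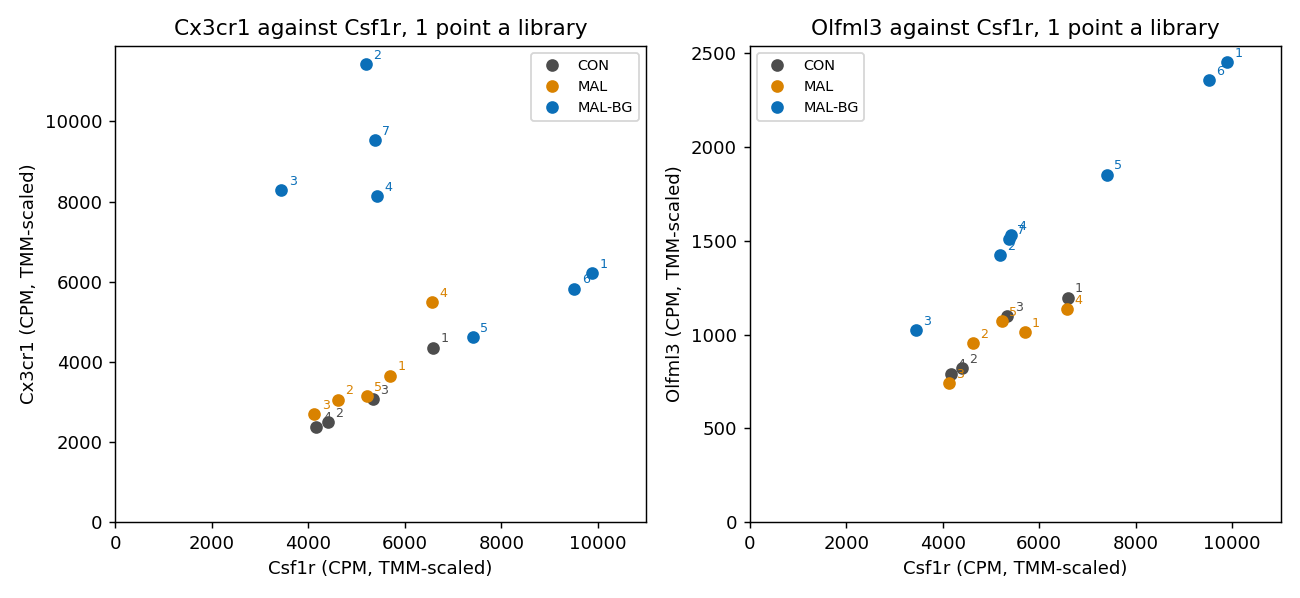
Cx3cr1 (left) and Olfml3 (right) against Csf1r, both axes in TMM-scaled CPM from 0, 1 point a library with its number. On the left, MAL-BG libraries 1, 5, and 6 have ratios of 0.613 to 0.628, as in CON and MAL, while 2, 3, 4, and 7 lie above 1.5, and on the right all 7 MAL-BG libraries have a higher ratio than the other 9.

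The gene most like each member was sought by the same deviations among 9779 genes with a mean of 10 CPM or more. Cx3cr1 was closest to Laptm5 (r = 0.99), a lysosomal membrane protein of blood-lineage cells, at 4243, 3177, and 3675 CPM in MAL-BG libraries 1, 5, and 6 and 7368, 5183, 5229, and 6060.4 in 2, 3, 4, and 7. Csf1r was closest to Fcgr3 (0.97), a low-affinity Fc receptor, and Selplg to Fcgr1 (0.98), the high-affinity one. The others were Rasa3 for Tmem119 (0.97), D15Ertd621e for Sall1 (0.97), Fam134b for Siglech (0.96), Gpr183 for Fcrls (0.98), Cyfip1 for Gpr34 (0.93), and Cnpy3 for Olfml3 (0.97). Each is the highest of 9779 values over 16 libraries, so likeness of this degree is partly a product of the search.

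Of 38 other homeostatic microglia genes, all tested, 23 were called higher against CON and 21 against MAL (11.4% and 10.2% of all genes). In this list 0 were called lower (21.7% and 20.2% of all genes). The log2 fold change was below 0 without a call in 5 against CON and in 6 against MAL. The medians of the list were 0.69 and 0.67 on the log2 scale. Among those called in both comparisons, Lgmn, a lysosomal protease, was at 1.47 (SE 0.24, adjusted p = 0.00024) against CON and Trem2, a lipid-sensing receptor, at 1.29 (SE 0.22, adjusted p = 0.000325). Of the genes called in both, those with the smallest rises against CON were Crybb1 at 0.65 (SE 0.21, adjusted p = 0.0171), Cd164 at 0.67 (SE 0.14, adjusted p = 0.00105), and Bin1 at 0.68 (SE 0.19, adjusted p = 0.00783). P2ry12 did not pass, with 0.38 (SE 0.30, adjusted p = 0.312) against CON and 0.30 (SE 0.27, adjusted p = 0.382) against MAL. With the choroid plexus covariate, 9 of the 38 were called higher and 3 lower against CON, and 13 and 4 against MAL.

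Of 16 lineage regulators, 2 were called higher and 2 lower in each comparison. Among all genes, 11.4% were called higher and 21.7% lower against CON, and 10.2% and 20.2% against MAL. Whether the list differs from all genes was not tested. Against CON, Bhlhe41 rose by 0.77 (SE 0.18, adjusted p = 0.00259) and Mef2c, a regulator that restrains microglial activation, rose by 0.77 (SE 0.18, adjusted p = 0.00268) on the log2 scale. Bhlhe40 fell by 1.93 (SE 0.25, adjusted p = 4.42e-05) and the stress-responsive Cebpb fell by 0.96 (SE 0.22, adjusted p = 0.00272). Spi1, the gene for PU.1, and its partner Irf8 did not pass, at 0.08 (SE 0.19, adjusted p = 0.764) and 0.40 (SE 0.17, adjusted p = 0.0678).

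Ligands and signaling partners were followed in 25 of 27 genes, since the selectins Selp and Sele were too low to test. Against CON 8 were called higher and 2 lower (11.4% and 21.7% of all genes). Against MAL 4 were called higher and 2 lower (10.2% and 20.2% of all genes). Csf1, a Csf1r ligand, was at 291, 114, 150.3, and 128 CPM in CON, 98, 73.5, 98.2, 108, and 175 in MAL, and 51 to 67.8 in MAL-BG, below every other library. It fell by 1.61 (SE 0.23, adjusted p = 7.6e-05) against CON and by 0.98 (SE 0.22, adjusted p = 0.00191) against MAL on the log2 scale. Cbl, a ubiquitin ligase that acts on activated Csf1r, fell by 1.74 (SE 0.28, adjusted p = 0.000185) and by 1.94 (SE 0.27, adjusted p = 6.01e-05).

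The other Csf1r ligand, Il34, was at 2.99 to 15.4 CPM in CON and 3.15 to 15.5 in MAL-BG and did not pass, at -0.08 (SE 0.43, adjusted p = 0.897). Cx3cl1, the mainly neuronal ligand of Cx3cr1, was at -0.35 (SE 0.39, adjusted p = 0.49) against CON, and Tyrobp, the adaptor of Siglech, at 0.02 (SE 0.23, adjusted p = 0.95). The partners called higher in both comparisons were, against CON, Abhd12, a lysophosphatidylserine lipase, at 0.98 (SE 0.17, adjusted p = 0.000335), Ctss, a cathepsin, at 0.97 (SE 0.19, adjusted p = 0.000785), Tpst2, a tyrosylprotein sulfotransferase, at 0.74 (SE 0.16, adjusted p = 0.00138), and Adam10, a sheddase, at 0.73 (SE 0.11, adjusted p = 0.000111). Ligands made by neurons or vessels were sampled here only as far as such cells came along with the CD11b+ fraction.

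Many of 20 disease-associated microglia genes are known to rise as homeostatic transcripts fall. The log2 fold change was below 0 without a call in 5 of them against CON and in 9 against MAL. As DEGs, 0 fell (21.7% and 20.2% of all genes against CON and MAL) and 5 rose (11.4% and 10.2%) in each comparison. Those that rose were, against CON, Lpl, a lipoprotein lipase, at 1.16 (SE 0.20, adjusted p = 0.000319), Ctsl, a cathepsin, at 0.90 (SE 0.15, adjusted p = 0.000287), Cst7, a cystatin, at 0.82 (SE 0.23, adjusted p = 0.00823), Cd9, a tetraspanin, at 0.81 (SE 0.20, adjusted p = 0.00408), and Cd68, a lysosomal membrane protein, at 0.61 (SE 0.24, adjusted p = 0.0463). Apoe, the most abundant of the list, was at -0.13 (SE 0.23, adjusted p = 0.671). The medians of the list were 0.33 and 0.25, against 0.83 and 0.82 for the members.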

How the data were processed

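Gene counts of CD11b+ brain cells were analysed for 16 libraries in 3 groups. Stranded poly(A) libraries were read in pairs, aligned with STAR to GRCm38, and counted by HTSeq, and the authors deposited the raw counts as a single table. The mode, strand option, and annotation of counting are not given in the sources used here. Groups were read from column names. The running numbers of the columns match no sample title, so a library number is only a name and no batch term could be fitted, although the study fitted one. The study counts mice, and the labels do not say that libraries came from separate animals, so p-values measure the spread between these libraries.

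Genes above 10 counts in 4 or more libraries (14565) were scaled by TMM. All 3 groups entered 1 quasi-likelihood fit (edgeR 4.0.16 in R 4.3.3), and p-values were adjusted over all genes by Benjamini-Hochberg. DEGs had an adjusted p under 0.05 and a log2 fold change beyond 0.58. Within groups, none of 37 library pairs agreed within sampling noise. Alternatives covered scaling, filters, DESeq2 1.42.0, the samples fitted, and each library left out, and a choroid plexus covariate was added after seeing the data. The steps were tested on simulated data. Genes named are the 9 members, set pathway genes (P2ry12, Spi1, Irf8, Csf1, Il34, Cx3cl1, Tyrobp, Apoe), up to 3 with the largest and 3 with the smallest fold change against CON among genes of a list called in both MAL-BG comparisons, the gene most like each member, and the most abundant gene of a marker list. Values of 1 gene that this rule names are not reported here. Members and lists were chosen with earlier results of these data known. Coordinates and promoter windows are from RefSeq (GRCm38.p6), and transcript lengths and exon overlaps from GENCODE.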

Additional observations from a re-analysis of the deposited data

Results flagged for a closer look

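In 63 group values tested for a library far from the others (levels and ratios of the members and 4 marker sums), 4 stood apart, and chance alone sets about 1 in 20 apart. The ratio of Cx3cr1 to Csf1r was 0.662 in CON library 1 and 0.835 in MAL library 4, above the other libraries of each group. These are the libraries with the highest member levels and the lowest choroid plexus sums of their groups. The summed neutrophil level was 15368 CPM in MAL-BG library 5, and the summed choroid plexus level was 17080 CPM in MAL-BG library 3. The part of these levels in the results of the members was not tested beyond leaving out each library.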

How the results depend on the processing

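No paired analysis was possible because the library numbers in the deposited table match no sample title. The 6 DEGs among the members kept their direction and call in both MAL-BG comparisons under every alternative but 1, with 6 to 8 members called against CON and 6 to 7 against MAL when each library was left out, and MAL versus CON gave 0 members throughout. The exception is the choroid plexus covariate, with 2 members in each comparison and 12 other homeostatic genes against CON, Sall1 at -0.23 and Csf1r at -0.17 against CON, Sall1 at -0.36 and Csf1r at -0.11 against MAL, and, for MAL versus CON, Tmem119 at -0.019, Siglech at -0.040, Olfml3 at -0.058, and Csf1r at -0.065. How much of this belongs to the covariate or to the groups cannot be told apart. Total counts alone turned Sall1 against MAL to -0.028. The all-gene median moved to -0.17 and -0.16 with total counts alone and to 0.21 and 0.19 with mean log2 CPM scaling (22.4% and 20.1%, then 57.8% and 58.3% of DEGs higher, against 34.4% and 33.4%).

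With each library left out, Sall1 against MAL ran from -0.0082 to 0.19 (lowest without MAL-BG library 6), and for MAL versus CON Tmem119 ran from -0.038 to 0.23, Siglech from -0.044 to 0.10, Fcrls from -0.13 to 0.15, Olfml3 from -0.080 to 0.11, Selplg from -0.030 to 0.23, and Csf1r from -0.061 to 0.17. The ratio of Sall1 to Csf1r against CON ran from -0.016 to 0.15, and 8 to 11 ratio tests passed. Siglech reached the fold threshold against CON without CON library 1 or 3 or MAL-BG library 1, 2, 3, 4, or 7 (0.59 to 0.63), with DESeq2 or its size factors, and with no filter beyond 1 count (each 0.59), and against MAL without MAL library 4 or MAL-BG library 2, 3, or 7 (0.58 to 0.59). It also did so with mean log2 CPM scaling in both comparisons (0.82 against CON and 0.75 against MAL). With P2ry12 as denominator 5 of 16 ratio tests passed. The other planned denominator is not reported here.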
